A study of Mus musculus with 4 samples.

Results

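The growth hormone, STAT5 and IGF1 axis of the liver was followed here through 10 genes, Ghr, Stat5a, Stat5b, Socs2, Cish, Igf1, Igfals, Igfbp1, Igfbp2 and Igfbp3, in hepatocytes that lack Pnpt1. The genes were chosen by name, and their probes were found by matching each probe's RefSeq accession to the gene symbol. All 10 genes had a probe. They had 13 probes together, of which 12 were bright enough to test, so 9 of the 10 genes were measured, among 11495 named genes measured on the arrays. Igfbp3 was the gene left out, because its single probe was dim.

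The knockout (HepKO) mice were Pnpt1 fl/fl and carried 1 Albumin-Cre allele, a transgene that drives recombination in hepatocytes. The wild-type (WT) mice were Pnpt1 fl/fl without Cre, so both genotypes carried the floxed alleles, and all were C57BL/6J. Hepatocytes came from liver perfused with collagenase, and no sort is described. There were 2 pairs, each of 1 HepKO and 1 WT mouse, so 4 mice in all. In the pair labelled male the mice were 12.29 weeks old, although another field of the labels gives a different age. Body weight in that pair was 17.37 g in HepKO and 22.7 g in WT, and liver weight 1.19 g and 1.62 g. In the pair labelled female the mice were 4.29 weeks old, and body and liver weighed 16.81 g and 0.89 g in HepKO against 18.49 g and 0.97 g in WT. Each pair was hybridised on 2 two-colour arrays with the dyes exchanged, which made 4 arrays. The first array of a pair had HepKO in Cy5 and the second had HepKO in Cy3.

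A share of 48.2 to 58.6% of probes exceeded background clearly in each channel, and the number of pairs and mice limits the precision. Pnpt1 itself had 2 probes. One gave HepKO over WT log2 ratios of 0.31 and 0.058 in the pair labelled male and -0.38 on both arrays of the pair labelled female, and the other gave -0.67 and -0.32 and then -0.50 and -0.60. Neither was called (adjusted p = 0.747 and 0.0800, limma over all probes). The sources used here do not give the position of these probes relative to the deleted part, so they do not check the genotype labels. The sex labels went against the arrays. Xist, made from the inactive X chromosome in females, was detected above background in both genotypes on 2 of 2 arrays in the pair labelled male but on 0 of 2 in the other pair. The reverse held for Kdm5d, Ddx3y and Eif2s3y, which lie on the Y chromosome. Y-linked Zfy2 did not separate the pairs: its brighter probe was above background on 2 of 2 HepKO arrays and 1 of 2 WT arrays in each. The pairs are therefore named throughout by their labels, and the effects of label, age and slide cannot be told apart. Of the 9 hepatocyte markers measured, 0 were called, with 0 at an unadjusted p below 0.05 (limma), and their summed intensity was 794311 to 1186140 in HepKO and 742597 to 1107660 in WT. Many markers of other liver cells rose, where 12.0% of all genes were called higher and 15.7% in either direction. All 8 measured macrophage markers rose, with a median log2 ratio of 1.81 and a summed intensity of 70385 to 75965 in HepKO against 8354 to 21170 in WT. Of 10 endothelial markers 8 rose (17552 to 18326 against 6455 to 9472), and of 10 stellate cell and fibroblast markers 4 rose (19601 to 24342 against 12165 to 13676). Among the rarer cells, 2 of 7 cholangiocyte markers rose (4258 to 7627 against 766.5 to 1041), 4 of 9 lymphocyte markers (1990 to 3408 against 645.6 to 894.4) and 4 of 6 neutrophil markers (2435 to 4195 against 558.8 to 768.1). In WT, Cldn7, Epcam, Cd2, Klrb1c, Ms4a1, Mmp8 and Retnlg were not well above background on any array. The part of these cells in the results below was not tested. In such bulk samples, fewer cells of a type and less RNA per cell cannot be told apart.

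Growth hormone from the pituitary binds its receptor GHR on hepatocytes, which activates the kinase JAK2 and, through it, the transcription factors STAT5A and STAT5B. STAT5 switches on Igf1, the gene of the main circulating growth factor, and Igfals, whose product holds IGF1 in a stable complex in blood, and it also switches on Socs2 and Cish, which damp the receptor in a feedback loop. IGF binding proteins carry or restrain IGF1: IGFBP3 is the main carrier in blood, while the liver's IGFBP1 and IGFBP2 respond strongly to fasting and insulin. Because pituitary growth hormone is released in different patterns in male and female rodents, the same pathway also sets most sex differences in liver gene expression.

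The promoters of the members show where this signalling could meet the genes by sequence. RefSeq promoter windows on GRCm38.p6, which run from 250 bases before each transcript start to 50 after it, were found for 9 of the 10 genes, 15 windows in all. They were searched on both strands for the STAT5 motif TTCNNNGAA, for CAAAACA, the core of the insulin response element bound by FOXO factors, and for the forkhead motif GTAAACA. Over all windows in the table, 8.3% held the first, 6.28% the second and 3.65% the third. The searched motifs share no letters at their sites in these members. The following 3 windows are shown because they hold a match; capitals mark the match, and each is written 5′ to 3′ on the gene's strand, all on the plus strand. Cish, at chr9:107296409-107296678, ends 20 bases after the start, with TTCCTGGAA at the first transcribed base and TTCTTGGAA at base 12. The second listed Igfals window, at chr17:24877981-24878230, has TTCCTAGAA 58 bases before the start and the forkhead motif, read on the minus strand, 242 bases before it. Igfbp1, at chr11:7197537-7197786, has CAAAACA 108 bases before the start.
Cish: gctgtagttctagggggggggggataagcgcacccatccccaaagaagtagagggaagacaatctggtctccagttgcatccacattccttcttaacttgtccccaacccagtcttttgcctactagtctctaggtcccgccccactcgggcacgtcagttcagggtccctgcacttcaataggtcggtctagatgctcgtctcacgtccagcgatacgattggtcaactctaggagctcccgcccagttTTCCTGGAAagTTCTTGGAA
Igfals: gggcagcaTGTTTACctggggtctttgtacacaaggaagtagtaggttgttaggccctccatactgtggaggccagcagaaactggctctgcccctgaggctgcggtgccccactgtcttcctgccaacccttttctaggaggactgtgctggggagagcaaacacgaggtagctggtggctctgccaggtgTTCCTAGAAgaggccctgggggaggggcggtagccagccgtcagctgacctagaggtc
Igfbp1: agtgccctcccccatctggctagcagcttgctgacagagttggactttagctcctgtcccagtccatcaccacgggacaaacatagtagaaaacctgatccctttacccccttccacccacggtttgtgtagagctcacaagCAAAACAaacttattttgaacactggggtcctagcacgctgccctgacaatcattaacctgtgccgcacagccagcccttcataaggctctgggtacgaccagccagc
The first listed Igfals window holds another STAT5 match, TTCTCAGAA, 236 bases before its start. The windows of Ghr, Stat5a, Stat5b, Igf1, Igfbp2 and Igfbp3 held none of the 3 motifs, which says only that these letters are not in these windows.

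The comparison of HepKO with WT asked how loss of Pnpt1 from hepatocytes alters their gene expression. Of the 9 members measured, 3 fell: Ghr, Stat5b and Igfbp2, which are the receptor, a transcription factor and a binding protein. None rose. Both directions together, 15.7% of the 11495 genes were called (adjusted p at most 0.05, limma with Benjamini-Hochberg adjustment over all genes), with 3.71% lower and 12.0% higher. At an unadjusted p below 0.05 there were 5 members, the other two being Igf1 and Igfbp1. The median log2 ratio of the 9 was -0.44, against 0.083 for all genes; it was -0.75 in the pair labelled male and -0.34 in the pair labelled female. A log2 ratio below 0 on all 4 arrays was seen for 5 members, Igfbp2, Ghr, Igf1, Stat5b and Stat5a, and for 25.0% of all genes. It was above 0 on all 4 arrays for 1 member, Igfbp1, and for 39.4% of all genes. Leaving out 1 array at a time left between 0 and 2 members called. None was called without the second array of the pair labelled male, where 4 had an unadjusted p below 0.05.

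**Figure D1:**
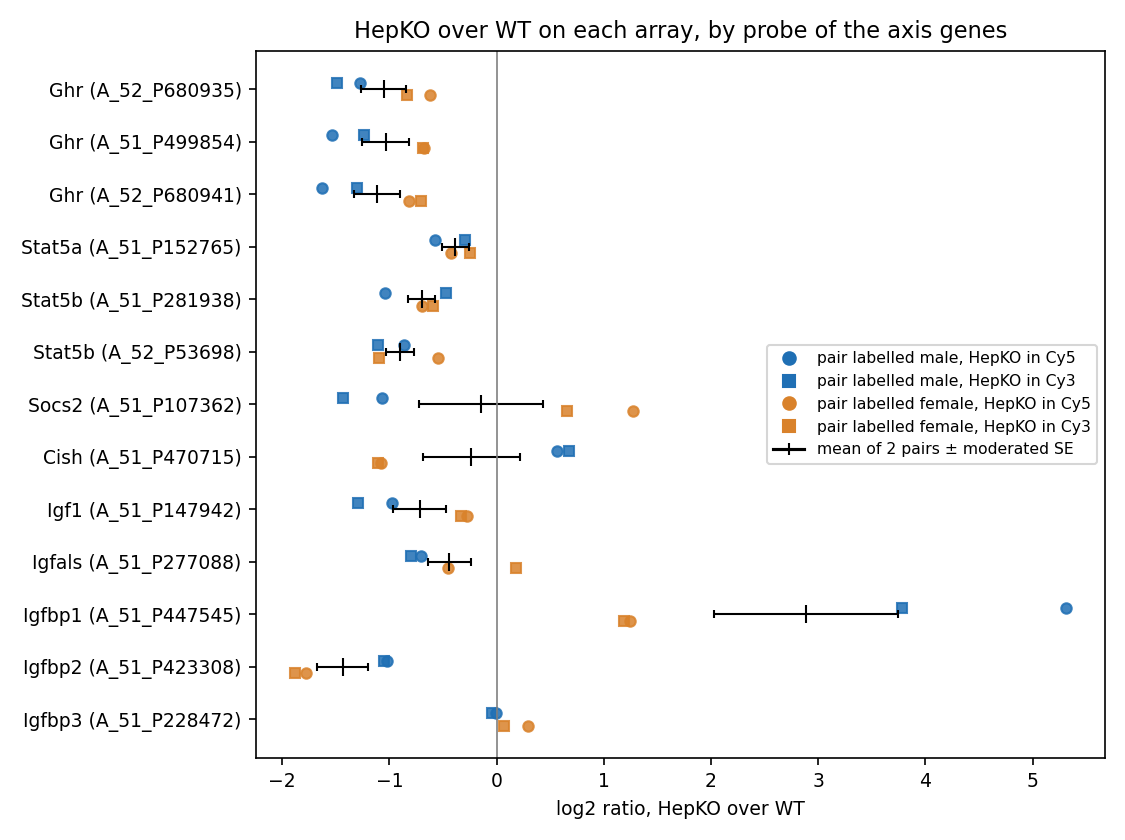
Log2 ratio of HepKO over WT (horizontal axis) for each of the 13 probes, 1 point per array, with the 2 pairs in separate colours, circles for HepKO in Cy5, squares for HepKO in Cy3, and the mean of the 2 pairs ± moderated SE for the probes kept. Ghr, Stat5a, Stat5b, Igf1 and Igfbp2 lie below 0 on all 4 arrays, Igfbp1 lies above 0 on all 4, and Socs2 and Cish lie on opposite sides of 0 in the 2 pairs.

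Ghr, the receptor through which growth hormone enters the pathway, fell about 2-fold. On its brightest probe the log2 intensity was 12.84 and 12.63 in HepKO and 14.11 on both arrays in WT of the pair labelled male. In the pair labelled female it was 13.75 and 13.48 in HepKO against 14.37 and 14.31 in WT. Every HepKO value was below every WT value, a pattern that 17.1% of all genes showed. The log2 ratios were -1.27, -1.49, -0.62 and -0.83, with a mean of -1.05 ± 0.21 (limma's moderated SE, as for every SE below, n = 2 pairs). This is 2.07-fold lower in HepKO (adjusted p = 0.0483, limma). The fall was 2.60-fold in the pair labelled male and 1.65-fold in the pair labelled female; the difference between the pairs was not tested. The other 2 Ghr probes gave -1.04 ± 0.22 and -1.11 ± 0.22, a similar fall read in the same 4 mice. These SEs do not measure error between probes. None of the 3 probes passed when single probes were tested (adjusted p = 0.0592, 0.0650 and 0.0586, limma). Of all probes tested singly, 10.3% were called, 7.33% higher and 2.99% lower. The call was lost without the second array of the pair labelled male (adjusted p = 0.0652) and without the second array of the pair labelled female (0.0571), and the adjusted p reached 0.135 over the alternatives tried.

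Stat5b, the STAT5 form that carries most growth hormone signalling in mouse liver, also fell. Its brightest probe read 11.08 and 11.07 in HepKO against 12.12 and 11.54 in WT of the pair labelled male, and 11.17 and 11.19 against 11.86 and 11.78 in the pair labelled female. The 4 HepKO values lay within a narrow band below the lowest WT value. The log2 ratio was -0.70 ± 0.14 (SE, n = 2 pairs), a 1.62-fold lower level (adjusted p = 0.0495, limma over genes). A dimmer Stat5b probe gave -0.87, -1.10, -0.55 and -1.10, with a mean of -0.90 ± 0.13, and passed over all probes (adjusted p = 0.0382), where the brighter one did not (0.0533). The gene's call was lost without the first or the second array of the pair labelled male (adjusted p = 0.0736 and 0.0732) and without the first of the pair labelled female (0.0685), with a highest value of 0.133 over the alternatives.

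Stat5a, the close relative of Stat5b encoded beside it, was dimmer in HepKO on every array but did not pass. Its log2 intensity was 9.36, 9.39, 9.46 and 9.44 in HepKO and 9.93, 9.68, 9.88 and 9.69 in WT. The groups did not overlap, but the gap was small. The log2 ratio was -0.38 ± 0.14 (SE, n = 2 pairs; adjusted p = 0.143, limma).

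**Figure D2:**
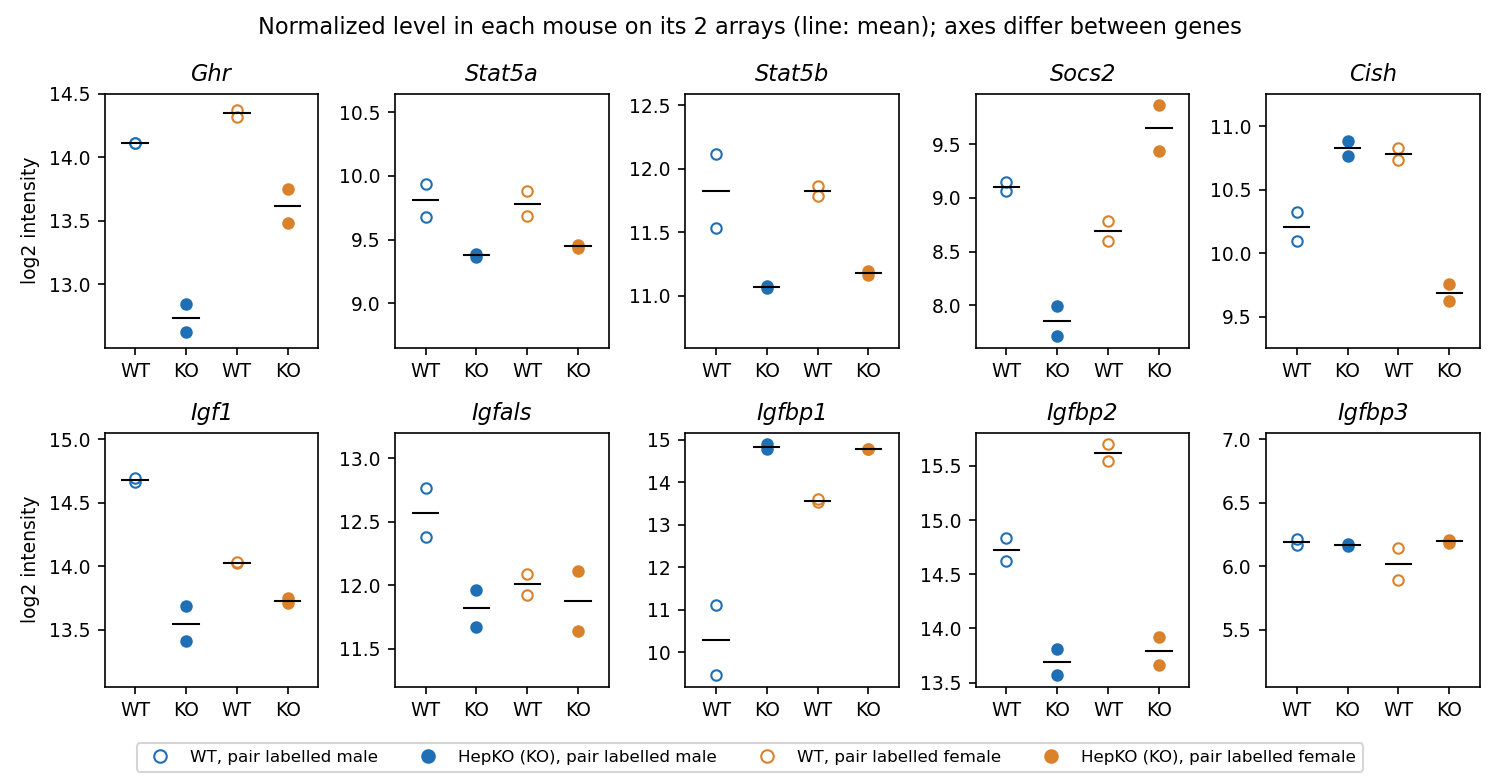
Log2 intensity (vertical axis) of each member in each mouse, with 1 point per array, open for WT and filled for HepKO, lines at the means, and an axis of its own for each gene. The HepKO values of Igfbp1 lie between 14.77 and 14.89 in both pairs, whereas its WT values run from 9.46 to 13.60.

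Socs2 and Cish, the STAT5-induced genes whose proteins damp the receptor, had log2 ratios of opposite sign in the 2 pairs, and opposite to each other within each pair. Socs2 read 7.99 and 7.71 in HepKO against 9.06 and 9.15 in WT of the pair labelled male, and 9.87 and 9.43 against 8.60 and 8.78 in the pair labelled female. It was thus 2.38-fold lower in HepKO of the former and 1.95-fold higher in HepKO of the latter. Cish, with 2 STAT5 motifs just after its start, read 10.89 and 10.77 in HepKO against 10.32 and 10.09 in WT of the pair labelled male. In the pair labelled female its values were 9.75 and 9.63 in HepKO against 10.83 and 10.73 in WT. Cish was 1.54-fold higher in HepKO of the pair labelled male and 2.13-fold lower in that of the pair labelled female. For both genes the 2 dye orientations of a pair had the same sign, and 8.46% of all genes showed such a switch of sign between the pairs. Averaged over the pairs, neither was called: the mean log2 ratio was -0.14 ± 0.56 for Socs2 (adjusted p = 0.875, limma) and -0.24 ± 0.44 for Cish (0.731; SE, n = 2 pairs each). With 1 HepKO and 1 WT mouse a pair, the difference between pairs has no test.

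**Figure D3:**
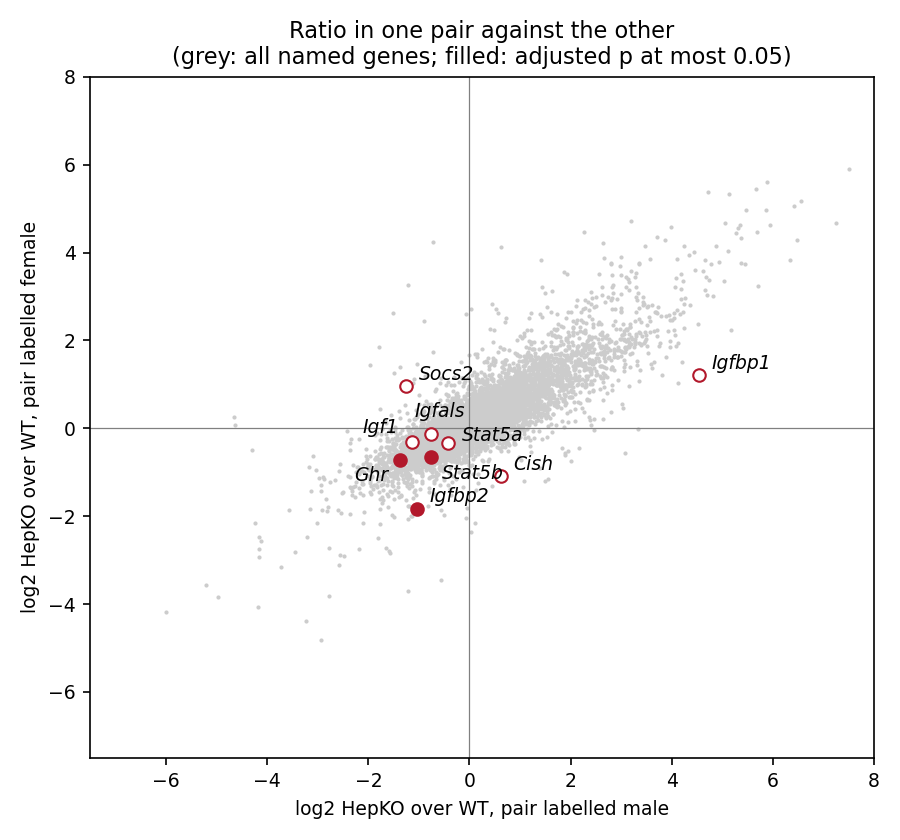
Mean log2 ratio of HepKO over WT in the pair labelled male (horizontal axis) against that in the pair labelled female (vertical axis), with the 9 measured members as circles, filled where called, over all genes measured in grey. Socs2 (-1.25 and 0.96) and Cish (0.62 and -1.09) lie in opposite corners, and Igfbp1 (4.55 and 1.22) lies far to the right.

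Igf1, the hormone of the axis, was dimmer in HepKO on all 4 arrays but was not called. Its log2 intensity in the pair labelled male was 13.69 and 13.41 in HepKO against 14.66 and 14.70 in WT. In the pair labelled female it was 13.75 and 13.71 against 14.02 and 14.04. No HepKO value reached a WT value, and the gap was wider in the pair labelled male (2.19-fold) than in the pair labelled female (1.23-fold), a difference that was not tested. The mean log2 ratio was -0.72 ± 0.25 (SE, n = 2 pairs), with an unadjusted p of 0.0434 and an adjusted p of 0.127 (limma). The HepKO values of the 2 pairs lay within 0.18 of each other on average, while WT was 0.65 higher in the pair labelled male.

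Igfals, which encodes the acid-labile subunit that keeps IGF1 and its carrier in circulation, read 11.67, 11.97, 11.64 and 12.11 in HepKO and 12.38, 12.76, 12.09 and 11.92 in WT. The groups overlapped: HepKO was below WT on 3 of the 4 arrays and above it on the second array of the pair labelled female. The log2 ratio was -0.44 ± 0.21 (SE, n = 2 pairs; adjusted p = 0.211, limma).

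Igfbp1, an insulin-repressed binding protein that limits free IGF1, showed the widest gap of all members but did not pass. Its HepKO intensity was 14.77 and 14.89 in the pair labelled male and 14.77 and 14.79 in the pair labelled female. Its WT intensity was 9.46 and 11.11 in the former and 13.53 and 13.60 in the latter. Every HepKO value was above every WT value, as for 30.8% of all genes, and the level in HepKO was nearly the same in all arrays, whereas WT differed by 3.28 on the log2 scale between pairs. HepKO was 23.4-fold above WT in the pair labelled male and 2.33-fold in the pair labelled female. The former rests on log2 ratios of 5.31 and 3.78 on arrays of the same extracts, so the size of the gap in that pair was imprecise. The mean log2 ratio was 2.88 ± 0.83 (SE, n = 2 pairs), with an unadjusted p of 0.0246 and an adjusted p of 0.0918 (limma).

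Igfbp2, a binding protein that liver makes in quantity in young and fasted animals, fell. It read 13.81 and 13.57 in HepKO against 14.83 and 14.62 in WT of the pair labelled male, and 13.92 and 13.66 against 15.70 and 15.54 in the pair labelled female. All HepKO values lay below all WT values. The log2 ratio was -1.43 ± 0.24 (SE, n = 2 pairs), 2.70-fold lower in HepKO (adjusted p = 0.0341, limma), with 2.05-fold in the pair labelled male and 3.56-fold in the pair labelled female. Without the second array of the pair labelled male its adjusted p was 0.0505, and the highest value over the alternatives was 0.121.

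Igfbp3, the main blood carrier of IGF1, was at the background. Its probe was well above background on 2 of 4 arrays in HepKO and on 1 of 4 in WT, with log2 intensities of 6.16 to 6.21 and 5.89 to 6.22. A fall in Igfbp3, or a rise too small to leave the background, was therefore not detectable on these arrays.

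Set side by side, the WT and HepKO mice differed in how far the pairs stood apart. In WT, the level in the pair labelled male minus that in the pair labelled female was -3.28 for Igfbp1, -0.89 for Igfbp2, 0.65 for Igf1, 0.56 for Igfals, -0.57 for Cish, 0.42 for Socs2 and -0.23 for Ghr on the log2 scale. In HepKO the same difference was 0.053 for Igfbp1, -0.10 for Igfbp2, -0.18 for Igf1 and -0.057 for Igfals, so the RNA of these secreted proteins was nearly level between pairs. Such small differences are ordinary: over all genes the median absolute difference between pairs was 0.15 in WT and 0.21 in HepKO. For Socs2, Cish and Ghr the HepKO difference was -1.80, 1.14 and -0.88, larger than in WT. Stat5a and Stat5b differed by at most 0.11 between pairs in either genotype. With 1 mouse behind each value, these are descriptions with no test.

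Among 20 partners and attenuators of growth hormone receptor signalling, 19 were measured, 6 rose (12.0% of all genes did) and 0 fell, with a median log2 ratio of 0.23. Jak2, the kinase on the receptor, was not called, with 0.80 and 1.31 in the pair labelled male and -0.13 and 0.11 in the pair labelled female. The genes that rose are shared with other pathways. Socs1, an interferon-induced inhibitor of JAK kinases, rose by 2.92 ± 0.54 (adjusted p = 0.0411, limma). Grb10, an adaptor that restrains insulin and IGF1 receptors, rose by 1.53 ± 0.14 (0.0152) on its brightest probe but by 0.73 averaged over its probes (0.0448), so its probes disagreed. Ptpn6, a phosphatase abundant in blood cells, rose by 1.06 ± 0.19 on its brightest probe (adjusted p = 0.0369, limma). Averaged over its probes it gave 0.73 and was not called (adjusted p = 0.0716). The Ptpn6 call was also lost with the Feature Extraction ratios (adjusted p = 0.0649) and the authors' table (0.0659). With the Feature Extraction ratios the rise of Socs1 was 3.54. Without the second array of the pair labelled male, or without the first of the pair labelled female, 2 of this list were called, and Socs1 and Ptpn6 were not (adjusted p = 0.0652 and 0.0548, and 0.0624 and 0.0587). The macrophage and lymphocyte markers given above rose in the same mice.

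Of 18 other IGF ligands, receptors, binding proteins and proteases, 10 were measured, 3 rose and 0 fell (12.0% and 3.71% of all genes), with a median log2 ratio of 0.23. Igf1r, the IGF1 receptor, was among those too dim to measure. Igfbp7, a binding protein of low IGF affinity made by endothelial cells, rose by 1.35 ± 0.18 (adjusted p = 0.0246, limma), beside the rise in endothelial markers. Htra1, a protease that cuts IGF binding proteins, rose by 1.28 ± 0.19 (0.0275), and by 2.01 with the Feature Extraction ratios. Igf2, the fetal IGF ligand, was well above background on 4 of 4 HepKO arrays and 0 of 4 WT arrays. Against the probe's dim WT signal it was 2.00-fold higher in HepKO (adjusted p = 0.0419, limma), an imprecise fold. The log2 ratio was 0.75 in the pair labelled male and 1.25 in the pair labelled female. The probe was kept only through its HepKO signal, so this call, counted among the 3, partly follows from that filter. Igf2 had no value when probes had to be well above background throughout. This call was lost without the second array of the pair labelled male (adjusted p = 0.0572), and without the first of the pair labelled female the adjusted p stood just past the threshold. It was also lost with the mean of the gene's probes (log2 ratio 0.67, adjusted p = 0.0746), and the Feature Extraction ratios gave a log2 ratio of 3.76, so the size of the rise depended on the processing. Among 16 regulators of these genes in liver, 15 were measured, 2 rose and 1 fell, shares near those of all genes (12.0% higher and 3.71% lower). Fgf21, a fasting hormone known to blunt growth hormone signalling, rose by 1.69 ± 0.14 (adjusted p = 0.0145, limma). Bcl6, a repressor that STAT5 holds down and that binds the same sites, rose by 1.11 ± 0.20 (0.0380), and Klb, the FGF21 co-receptor, fell by 0.71 ± 0.14 (0.0461). Bcl6 and Klb lost their calls without the second array of the pair labelled male (0.0590 and 0.0740) and without the first of the pair labelled female (0.0632 and 0.0527), and Klb also without the second of that pair (0.0572). Both calls were lost with the Feature Extraction ratios (0.0616 and 0.0614) and the authors' table (0.0629 and 0.0622). That of Klb was also lost with offset 16 (0.0531) and median centring (0.0792).

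**Figure D4:**
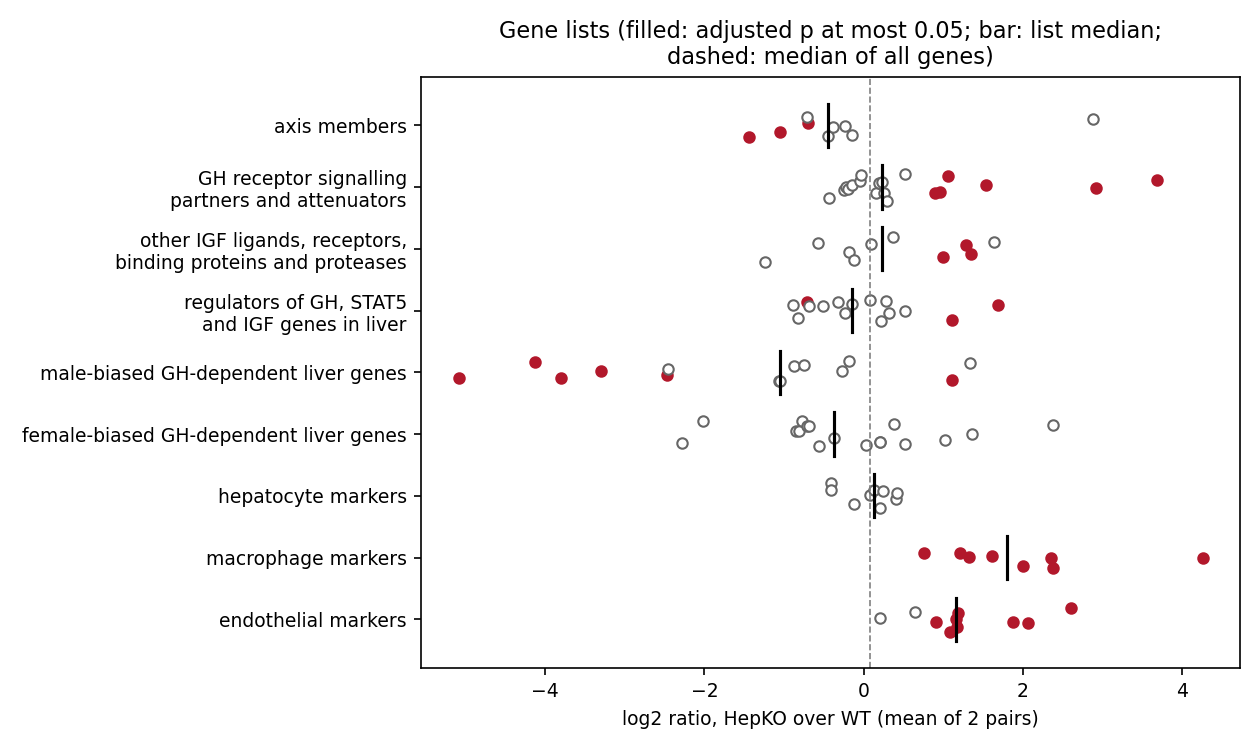
Log2 ratio of HepKO over WT (horizontal axis) for each measured gene of the axis and of the other gene lists, 1 row per list, filled where called, with a bar at the list's median and a dashed line at the median of all genes. The male-biased genes have a median of -1.05 with 5 lower calls, and the female-biased genes a median of -0.37 with no call.

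The liver genes whose sex bias depends on growth hormone are a further readout of the axis. Of 16 male-biased genes 14 were measured, and 5 fell (3.71% of all genes did) and 1 rose, with a median log2 ratio of -1.05 that was similar in both pairs (-1.21 and -1.29). Mup1 and Mup3, major urinary proteins that carry pheromones, fell by 5.09 ± 0.47 and 4.13 ± 0.14 (adjusted p = 0.0152 and 0.00993, limma), although these genes belong to a family of near-identical copies that a probe may not tell apart. Slco1a1, an organic anion transporter, fell by 3.81 ± 0.31 (0.0143), and Hsd3b5, a steroid dehydrogenase, fell by 3.29 ± 0.29 (0.0152). Both were well above background on 4 of 4 HepKO arrays, but dim. Slco1a1 read 6.69 and 6.56 in HepKO of the pair labelled male, and 6.09 and 6.17 in that of the pair labelled female. Hsd3b5 read 7.10 and 6.50, and 8.77 and 7.74. With so dim a HepKO signal, the size of these falls is imprecise. With the Feature Extraction ratios Slco1a1 fell by 5.71 and Hsd3b5 fell by 4.14, and Mup1 fell by 4.49 with HepKO in Cy5 alone and fell by 5.69 with HepKO in Cy3 alone. The gene that rose was Bcl6, which is also listed among the regulators. Gstp1, named after its values were seen, also had a ratio above 0 but was not called (1.34 ± 0.45, adjusted p = 0.121, limma).

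Of 19 female-biased genes 17 were measured and 0 were called (limma; 3 had an unadjusted p below 0.05). Their median log2 ratio was -1.06 in the pair labelled male and 0.072 in the pair labelled female. Cyp2a4, a steroid hydroxylase, had 0.94 and 0.30 in the pair labelled male and 4.12 and 4.14 in the pair labelled female (mean 2.38 ± 0.88, adjusted p = 0.140). Sult3a1, a sulfotransferase, was well above background only in WT of the pair labelled male, with a mean log2 intensity of 10.47 there and 5.84 in HepKO of that pair. In the pair labelled female neither genotype was above background, so only the pair labelled male is informative and the mean over pairs does not measure the change. The levels in WT went against the sex labels here too. All 17 measured female-biased genes were brighter in WT of the pair labelled male than in WT of the pair labelled female, without overlap (26.6% of all genes were), with a median difference of 1.81 on the log2 scale. In HepKO the median difference was -0.054. The male-biased genes were brighter in WT of the pair labelled female for 12 of 14 (24.5% of all genes), with a median difference of -0.69, and in HepKO it was -0.95. The exceptions were Gna14, which was brighter in the pair labelled male, and Mup1, whose values overlapped.

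Named after their values were seen, a few genes show the range. Hao2, a peroxisomal oxidase of the female-biased list, had a mean log2 intensity of 10.69 in WT of the pair labelled male and 6.26, not well above background, in WT of the other pair, but 9.47 and 9.53 in HepKO. Cyp2a4 had 15.44 and 11.44 in WT and 16.06 and 15.57 in HepKO. Among male-biased genes, Elovl3, a fatty acid elongase, had 7.24 and 12.84 in WT and 6.03 and 9.13 in HepKO.

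**Figure D5:**
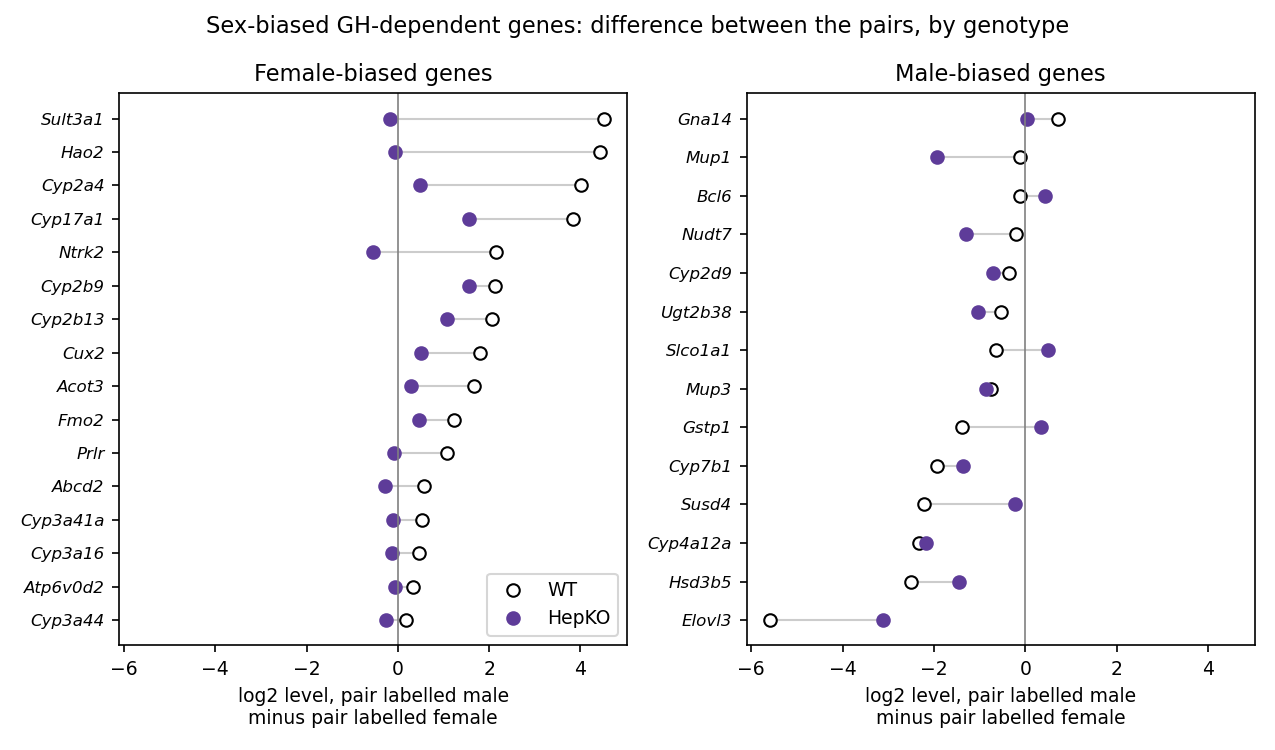
Mean log2 intensity in the pair labelled male minus that in the pair labelled female (horizontal axis) for the sex-biased genes shown, open for WT and filled for HepKO. In WT the female-biased genes all lie above 0, and the medians over all 17 measured are 1.81 in WT and -0.054 in HepKO.

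The genes whose pattern was most like Igf1 were found by the root mean square distance between their log2 ratios and those of Igf1 over the 4 arrays. The 3 nearest were Cds2, at 0.0636, Hacd1, at 0.0679, and Jmjd8, at 0.0741. Cds2, for example, had -0.98, -1.19, -0.29 and -0.41 where Igf1 had -0.98, -1.29, -0.27 and -0.33.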

How the data were processed

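RNA of HepKO and WT hepatocytes was measured on 4 two-colour Agilent arrays. The deposited scanner files hold spot intensity and a log10 ratio of red over green, made by the authors with Feature Extraction 10.2.1.3 per the file headers. The authors' deposited table holds the same log10 ratios, turned to HepKO over WT in every column; its columns have medians of 0. From the mean and median background intensity, log2 ratios were computed with limma 3.58.1 in R 4.3.3: spots marked as outliers left out, normexp with offset 50, loess within arrays with the 1639 control spots among 45018 at weight 0. Ratios were turned to HepKO over WT, spots of a probe averaged, and both dye orientations averaged to 1 value a pair, since they hold the same extracts. Levels were scaled between arrays with Aquantile. A probe was kept if well above background on both arrays of a pair in either genotype and measured on all 4 arrays; genes were represented by their brightest such probe. Accessions were matched to symbols through a RefSeq gene table. limma's moderated test of the mean against 0 used 2 pair values with 1 residual degree of freedom. Its p-values and every SE combine the spread between these pairs with a variance estimated over all genes (3.12 prior degrees of freedom). A printed SE can therefore exceed the spread of a gene's own 2 pair values. The p-values were adjusted by Benjamini-Hochberg, with a threshold of 0.05. The procedure was tested on simulated data.

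Named genes were all members with every probe, up to 4 called genes of largest ratio a pathway list (2 where none was called), and the 3 genes nearest Igf1; a few genes that enter the counts are not reported here by name. The members and lists were chosen with earlier results of these data known. Alternatives changed the background correction, offset, normalization, filter, probe summary, dye orientation and arrays; 1, leaving out spots with outlying background, was added after the data were seen. No column of another sample was present (0 columns).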

Additional observations from a re-analysis of the deposited data

Results flagged for a closer look

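Socs2 differed between the pairs: the log2 ratio of HepKO over WT in the pair labelled male minus that in the pair labelled female was -2.21. Both arrays of the pair labelled male lay below 0 and both of the pair labelled female above it. Cish differed the other way by 1.71, with both arrays of the pair labelled male above 0 and both of the other pair below it. Neither difference was tested, since each pair holds 1 mouse of each genotype.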

How the results depend on the processing

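Ghr, Stat5b, Igfbp2, Igf1, Stat5a, Igfals, Cish and Igfbp1 kept their direction under every alternative that gave them a value. Ghr ranged from -1.27 to -0.95 and was not called under 9 of 16, Stat5b from -0.87 to -0.53 and not called under 11 of 16, and Igfbp2 from -1.74 to -1.40 and not called under 3 of 15. Socs2 turned above 0 with median centring in place of loess (0.069), with HepKO in Cy5 alone (0.10) and without the second array of the pair labelled female (0.0092; leaving out each array in turn gave -0.30 to 0.0092). With normexp fitted on outlier-marked spots too, 0 genes, 0 members and 0 pathway genes were called (limma; 3006 genes and 4 members at an unadjusted p below 0.05), against 1805, 3 and 17. Among all spots, the highest green background was 41156.5 on the second array of the pair labelled female and 35.5 to 39.5 on the other arrays. Its part in these lost calls was not tested. Without the filter on dim probes the counts were 0, 0 and 0 (4638 genes and 4 members unadjusted). The Feature Extraction ratios and the authors' table each called 1 member, Igfbp2. Leaving out spots with an outlying background called 0 of 8 members (4 unadjusted) and left Igfbp2 without a value. With the pair as a random block over 4 arrays, a replicate block, 4079 genes, 5 members and 29 pathway genes were called, Igf1 (adjusted p = 0.0367) and Igfbp1 (0.0258) among them. Leaving out each array in turn gave 1122 to 2144 genes, 0 to 2 members and 10 to 19 pathway genes, with 1122 genes and 0 members without the second array of the pair labelled male. Median centring called 1682 genes higher and 304 lower, against 1378 and 427, and put the median of all genes at 0.18. The reported test is itself paired, since HepKO and WT of a pair share each array, and the replicate numbers mark dye orientation. With 2 pairs, signal near background limits Igfbp3 and Igf2, and dim HepKO signal limits the size of the falls of Slco1a1 and Hsd3b5. The causes of the lost calls were not tested.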
